A study of Mus musculus with 380 samples.

Results

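Thymic epithelial cells (TECs) that bound the lectin UEA-1 were compared with TECs that carried the surface antigen Ly51, both sorted from wild-type mice at P28. The comparison rested on 8 of the 380 libraries of the series, 4 of each sort. The libraries were chosen by their labels, and within them every well with at least 1500 transcripts was taken as a cell. This gave 78, 68, 62 and 58 UEA-1+ cells in replicates 9, 10, 11 and 12, and 83, 73, 77 and 79 Ly51+ cells in replicates 1, 2, 3 and 8, of 96 wells each. Values of single libraries are given in these orders throughout. Both groups were males of the C57BL/6 strain, 4 weeks old by the labels, of wild-type genotype and without treatment. The dissociated thymi of all groups had been depleted of lymphoid cells and erythrocytes with magnetic beads against CD45 and Ter119, the markers of blood cells and of the red cell lineage, and the sorted cells carried the epithelial antigen EpCAM and no CD45. The labels name only the marker each sort carried, and the study's account of the P28 gates has each sort without the marker of the other. The study followed the origin of the thymic epithelium from 2 progenitor populations by scars that Cas9 left in *Hprt* and by single-cell RNA profiles. The RNA was read by CEL-Seq2, a method that sequences the 3′ ends of the RNA of single cells and counts molecules by a random barcode. The libraries of a sort were taken as technical replicates of 1 mouse, so that all p-values measure the spread between libraries and not between animals. The study's methods speak of a non-barcoded mouse for the non-barcoded P28 wild-type data. The labels do not say whether both sorts came from it, and some unsorted libraries of this age are labelled as biological replicates. If the sorts came from different mice, the sort and the animal cannot be told apart.

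TECs provide the niche in which T cells mature. In the cortex, cortical TECs present peptides that are cut by the thymoproteasome and by lysosomal proteases, and the survival of immature thymocytes depends on whether their receptors bind these peptides. In the medulla, medullary TECs display antigens of other organs, which depends in part on the nuclear regulator Aire, and self-reactive thymocytes are removed. Some medullary cells take on features of cells from other tissues and are called mimetic cells. Ly51 is the product of *Enpep*, and UEA-1 binds a fucose linkage that the enzyme encoded by *Fut1* makes. These reagents are in common use to separate cortical from medullary TECs.

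The UEA-1+ cells held the lower number of transcripts, and this bears on every comparison of single cells. The kept cells of a library summed to 345683 to 627419 transcripts in the UEA-1+ sort and to 750083 to 1015976 in the Ly51+ sort. The median cell held 6478, 5442, 7900 and 4475 transcripts against 10186, 11957, 11516 and 8261 (exact two-sided permutation test over libraries, n = 4 and 4, p = 0.0286, the smallest p that 4 against 4 libraries can give). Mitochondrial genes took 9.54% to 11.96% of the transcripts of a UEA-1+ library and 7.15% to 8.28% of a Ly51+ library. The predicted gene model *Gm10800* alone took 15.82% to 21.45% against 8.01% to 12.26%. With all Gm gene models and mitochondrial genes left out, 48, 40, 43 and 31 UEA-1+ cells and 78, 67, 72 and 72 Ly51+ cells still held 1500 transcripts. None of these quantities overlapped between the sorts, and with each cell thinned to 1000 barcodes 14.6% and 13.7% of the 933 genes that could then be tested were higher in UEA-1+ and in Ly51+ libraries. When Gm gene models and mitochondrial genes were left out of the fit, 1190 genes were higher in UEA-1+ and 971 in Ly51+ libraries of 7787 tested (edgeR adjusted p below 0.05). Of the 4 libraries of each sort, 2 had been deposited in the first 96 columns of their table and 2 in the last 96, so that the sets of well barcodes were balanced between the sorts, and no 2 cells had the same profile.

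The 3 marker genes of the sorts separated all libraries. *Aire* (chr10:78030022-78043610, minus strand, GRCm38), whose product drives ectopic expression of tissue antigens in medullary TECs, stood at 293, 538, 289 and 153.9 CPM (counts per 1000000 transcripts) in the UEA-1+ libraries and at 0, 0, 0 and 0 CPM in the Ly51+ libraries. Its 543 transcripts against 0 made it at least 441.97-fold higher in UEA-1+ cells, where the bound sets the Ly51+ sort to 3 transcripts over its 4 libraries (edgeR adjusted p = 1.82e-07). *Psmb11*, the catalytic subunit that defines the thymoproteasome of cortical TECs, stood at 11.6, 20.4, 24.9 and 62.3 CPM in UEA-1+ libraries and at 1104, 1004, 1175 and 611 CPM in Ly51+ libraries (log2 fold change -5.16 ± 0.36 SE, edgeR adjusted p = 6.30e-08). The lowest Ly51+ library was thus far above the highest UEA-1+ library. *Enpep* is the sorted antigen itself, so that its values are a check of the sort. It was measured at 0, 2.55, 2.08 and 7.33 against 22.3, 34.2, 37.3 and 36.6 CPM (log2 fold change -3.65 ± 0.52 SE, edgeR adjusted p = 6.29e-05). All fold changes are UEA-1+ over Ly51+, so that negative values are higher in Ly51+ cells, and CPM are scaled by the trimmed mean of M-values (TMM), a factor per library that sets the bulk of genes equal.

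The windows of 250 bases before the RefSeq starts of *Psmb11* and *Aire* are shown because these genes mark the sorts. Capitals mark the letters GACGC on either strand, the core of the binding motif of FOXN1, the transcription factor on which TECs depend. Sequences are from RefSeq, build GRCm38.p6, and are written 5′ to 3′ in the direction of the gene. The GENCODE record of *Psmb11* begins upstream of the window, at base 54621433.
Psmb11, chr14:54625060-54625309, plus strand: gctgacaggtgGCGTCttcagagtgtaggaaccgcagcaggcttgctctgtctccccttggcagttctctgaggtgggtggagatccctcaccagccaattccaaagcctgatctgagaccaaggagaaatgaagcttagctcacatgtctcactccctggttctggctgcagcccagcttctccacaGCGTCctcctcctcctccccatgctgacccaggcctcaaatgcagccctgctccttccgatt
Aire, chr10:78043611-78043860, minus strand: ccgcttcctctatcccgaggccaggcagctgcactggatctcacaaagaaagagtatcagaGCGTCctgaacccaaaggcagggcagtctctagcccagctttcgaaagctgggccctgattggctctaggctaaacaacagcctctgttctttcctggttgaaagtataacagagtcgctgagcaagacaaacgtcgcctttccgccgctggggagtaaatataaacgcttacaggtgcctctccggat
The *Psmb11* window held 2 matches, the nearer at 62 bases before the start, and the *Aire* window held 1. Such a match is frequent. It was present in 39.6% of the windows of all genes tested, in 38.2% of those of genes higher in Ly51+ cells and in 29.7% of those of genes higher in UEA-1+ cells, and in 22.6% of all 32851 windows in the table. A match describes the letters and is not a measured binding site.

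Of 8199 genes with enough transcripts to be tested, 1341 (16.4%) were higher in UEA-1+ libraries and 1114 (13.6%) were higher in Ly51+ libraries by edgeR's quasi-likelihood test at an adjusted p below 0.05. Together these were 2455 genes, or 29.9%, the background for the counts in gene lists. Some genes stand on more than 1 list, among them *Psmb11*, *Ctsl*, *Tnfrsf11a* and *Krt5*, so that the counts of different lists are not independent. A member near 0 in 1 sort was tested through the other, so that counts and medians over tested members are descriptions. So are the p-values of such genes, among them *Aire*, *Spib*, *Fut1*, *Hdc* and *Il1rn* on the UEA-1+ side. On the Ly51+ side they include *Enpep*, *Cd83* and *Ackr4*. A change of at least 2-fold was found for 932 (11.4%) and 639 genes (7.79%). Without the TMM factors, with library totals alone, the median gene moved by -0.38 on the log2 scale and the split turned from 54.6% to 24.6% of calls higher in UEA-1+ cells, with 868 against 2663 genes. Directions are therefore given relative to the bulk of genes, and where a list changes under library totals this is said.

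**Figure D1:**
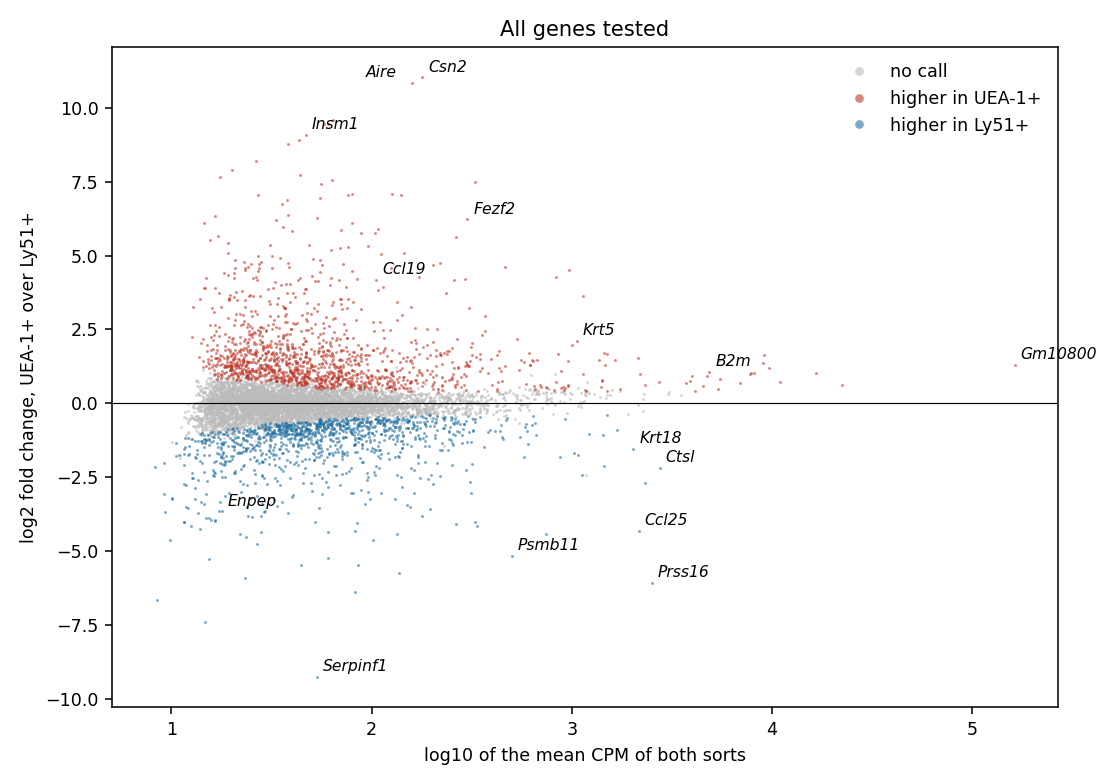
Log2 fold change of each of the 8199 genes tested (y axis, UEA-1+ over Ly51+) against the log10 of its mean CPM in both sorts (x axis); red points are higher in UEA-1+ and blue points higher in Ly51+ libraries at an edgeR adjusted p below 0.05. *Prss16*, *Ccl25* and *Psmb11* lie far below 0 at high levels and *Fezf2* and *Krt5* above it. Fitted values of genes without a transcript in 1 sort (*Aire*, *Csn2*, *Insm1*, *Serpinf1*) depend on the added prior count and are no measure of the fold.

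The 6 genes on the list of cortical antigen processing were all higher in Ly51+ libraries, with a median log2 fold change of -4.59 against 0.00 over all genes tested. *Prss16* encodes a serine protease that shapes the class II peptides of cortical TECs, and it was measured at 54.3, 71.4, 39.5 and 139.3 against 5103, 5166, 6025 and 3466 CPM (log2 fold change -6.08 ± 0.33 SE, edgeR adjusted p = 6.56e-09). Ly51+ replicate 8 was the lowest of its sort for both *Prss16* and *Psmb11*, and UEA-1+ replicate 12 the highest of its own. *Ctsl*, the lysosomal cathepsin L, was more evenly expressed, with 693.8, 884, 943 and 1440.5 against 4525, 4843, 4109 and 4532 CPM (log2 fold change -2.19 ± 0.19 SE, edgeR adjusted p = 6.74e-07). *Ly75*, which encodes the endocytic receptor CD205 used as a cortical marker, stood at 56.2, 43.3, 22.8 and 25.7 against 713, 702.5, 569 and 482.1 CPM (log2 fold change -4.02 ± 0.25 SE, edgeR adjusted p = 2.64e-08). *Cd83*, which stabilizes class II molecules on the surface, was nearly missing from UEA-1+ libraries, with 1.94, 5.10, 0 and 18.3 against 270.7, 336, 330.4 and 131 CPM (log2 fold change -5.73 ± 0.51 SE, edgeR adjusted p = 6.62e-07). The remaining member was *Tbata*, which is counted on the list although it is not an antigen processing gene. It stood at 382, 989, 434 and 674.4 against 3923, 4592, 4465 and 3033 CPM (log2 fold change -2.70 ± 0.26 SE, edgeR adjusted p = 1.64e-06).

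Among the catalytic proteasome subunits, 4 of 7 were higher in Ly51+ and 1 in UEA-1+ libraries, with a median of -0.65. Proteasomes carry standard catalytic subunits (*Psmb5*, *Psmb6*, *Psmb7*), immunoproteasome subunits (*Psmb8*, *Psmb9*, *Psmb10*) or, in the cortex, the thymoproteasome subunit *Psmb11* in place of *Psmb5* and *Psmb8*. *Psmb8* was the member higher in UEA-1+ libraries, at 382, 352, 319.9 and 213 against 158.1, 163, 186.4 and 220.9 CPM (log2 fold change 0.81 ± 0.18 SE, edgeR adjusted p = 0.00283), although UEA-1+ replicate 12 lay below Ly51+ replicate 8. The other immunoproteasome subunits went the opposite way, with *Psmb9* at 110.5, 152.9, 76.9 and 73.3 against 272, 282.5, 294 and 294 CPM (log2 fold change -1.45 ± 0.20 SE, edgeR adjusted p = 3.82e-05). *Psmb10* was measured at 281.005, 252.3, 311.6 and 285.9 against 536, 605, 542 and 482.1 CPM (log2 fold change -0.94 ± 0.15 SE, edgeR adjusted p = 1.74e-04). With cells thinned to 1000 barcodes the calls of *Psmb8* (log2 fold change 0.38, adjusted p = 0.41) and *Psmb9* (-0.92, 0.0679) were lost. *Psmb7* was the standard subunit with a call (log2 fold change -0.65 ± 0.21 SE, edgeR adjusted p = 0.0279), which was lost without UEA-1+ replicate 9 (adjusted p = 0.118), UEA-1+ replicate 11 (0.0779) or Ly51+ replicate 2 (0.0658) and with DESeq2 (0.0653). *Psmb5* (log2 fold change -0.42, edgeR adjusted p = 0.0744) and *Psmb6* (0.00, 0.995) had none. Scaled to library totals alone, 5 members were higher in Ly51+ libraries and none in UEA-1+ libraries.

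Of ligands and scavengers that serve thymocytes, 5 of the 6 testable members (6 with library totals alone) were higher in Ly51+ libraries, with a median of -3.66. *Ackr4*, *Kitl* and *Dll4* passed the count filter through the Ly51+ libraries, and 4 members were too low to test. This count and this median are therefore descriptions. *Ccl25*, a chemokine that draws progenitors into the thymus, stood at 120.2, 212, 166 and 352 against 4633, 3953, 4234 and 3649 CPM (log2 fold change -4.30 ± 0.27 SE, edgeR adjusted p = 2.31e-08). *Cxcl12*, the ligand of Cxcr4 on immature thymocytes, was measured at 32.9, 38.2, 103.9 and 95.3 against 1377, 1463, 1581 and 1258 CPM (log2 fold change -4.42 ± 0.30 SE, edgeR adjusted p = 5.93e-08). The scavenger receptor *Ackr4*, which removes the chemokines Ccl19, Ccl21 and Ccl25, showed 11.6, 10.2, 18.7 and 3.67 against 242, 254.8, 222.8 and 310.5 CPM (log2 fold change -4.41 ± 0.26 SE, edgeR adjusted p = 1.55e-08). In each of these genes the sorts were separated by a wide gap. *Kitl*, which encodes stem cell factor, stood at 19.4, 15.3, 22.8 and 7.33 against 163, 133, 123 and 149 CPM (log2 fold change -3.03 ± 0.24 SE, edgeR adjusted p = 2.28e-07). The Notch ligand *Dll4*, required for the T cell fate, was low in both sorts, at 31.01, 10.2, 2.08 and 0 against 68.9, 56.3, 74.6 and 45.4 CPM (log2 fold change -2.30 ± 0.46 SE, edgeR adjusted p = 0.00127), and it had no transcript in UEA-1+ replicate 12. *Il7*, the cytokine for thymocyte survival, was the member without a call, at 116.3, 130.0, 97.6 and 201.6 against 179, 176, 200.3 and 145 CPM (log2 fold change -0.40 ± 0.20 SE, edgeR adjusted p = 0.15). *Bmp4*, *Igf1*, *Wnt5a* and *Tslp* had too few transcripts to be tested.

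**Figure D2:**
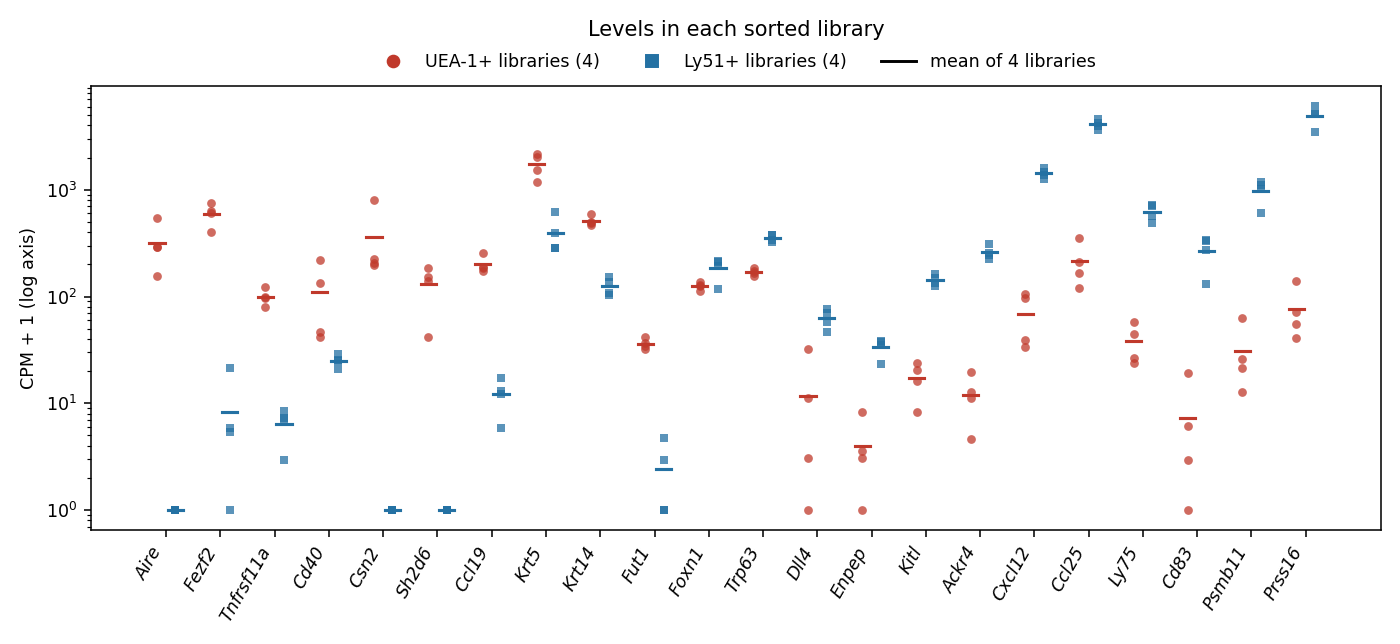
Levels of 22 genes (CPM + 1, log axis) in each of the 4 UEA-1+ libraries (red circles) and 4 Ly51+ libraries (blue squares), with a short bar in the colour of the sort at the mean of 4. Points of the sorts lie apart for all genes shown but *Foxn1*, whose lowest Ly51+ library (117 CPM) falls within the UEA-1+ range of 112 to 135 CPM.

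Of 9 testable transcription factors of the thymic epithelium, 5 were higher in Ly51+ libraries, none in UEA-1+ libraries and 4 had no call, with a median of -0.55. With library totals alone 7 were higher in Ly51+ libraries. *Foxn1*, on which the identity of TECs depends, stood at 128, 135, 112 and 125 against 193.1, 209.5, 215.9 and 117 CPM, and Ly51+ replicate 8 fell within the range of the UEA-1+ libraries. Its call (log2 fold change -0.57 ± 0.19 SE, edgeR adjusted p = 0.0353) was lost without any 1 of 7 libraries, all but Ly51+ replicate 8 (adjusted p 0.0516 to 0.0932), and with DESeq2 (0.0516), so that a difference in *Foxn1* is not firmly shown by these libraries. *Pax1*, a factor of the pharyngeal pouches that acts upstream in TEC development, was more clearly apart, at 65.9, 86.7, 87.2 and 190.6 against 400.7, 477.2, 659.004 and 409 CPM (log2 fold change -2.23 ± 0.27 SE, edgeR adjusted p = 1.42e-05). *Trp63*, which maintains stratified epithelia, was measured at 165, 183.5, 153.7 and 172.3 against 339, 379, 379 and 323 CPM (log2 fold change -1.08 ± 0.14 SE, edgeR adjusted p = 3.17e-05). *Isl1* stood at 34.9, 53.5, 64.4 and 102.6 against 213, 212, 202.04 and 199 CPM (log2 fold change -1.76 ± 0.23 SE, edgeR adjusted p = 2.26e-05). *Pax9* overlapped between the sorts (log2 fold change -0.55 ± 0.18 SE, edgeR adjusted p = 0.0302), and its call was lost without any 1 of 5 libraries (adjusted p 0.058 to 0.107). *Six4* and *Eya1*, which take part in pouch and TEC development, had no call, with log2 fold changes of 0.01 and -0.32.

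On the medullary side, 8 of the 9 testable genes of the Aire stage were higher in UEA-1+ libraries and none was lower, with a median log2 fold change of 0.98. *Fezf2*, a regulator of tissue antigens that acts beside Aire, was measured at 598.8, 632, 400.9 and 748 against 4.85, 20.3, 4.34 and 0 CPM (log2 fold change 6.22 ± 0.45 SE, edgeR adjusted p = 8.65e-08). *Tnfrsf11a* encodes RANK, the receptor through which medullary TECs mature, and stood at 98.8, 79.02, 120.5 and 95.3 against 1.94, 7.38, 6.07 and 6.31 CPM (log2 fold change 4.15 ± 0.29 SE, edgeR adjusted p = 6.03e-08). *Cd40*, a second receptor of this kind, varied more among the UEA-1+ libraries, with 134, 219.2, 45.7 and 40.3 against 24.3, 27.7, 19.9 and 23.98 CPM (log2 fold change 2.22 ± 0.41 SE, edgeR adjusted p = 6.28e-04). The remaining 4 calls were class II genes and *Cd74*, the invariant chain, which both sorts expressed strongly. *H2-Eb1* for instance stood at 3089, 3275, 2769 and 2536 against 1693, 1495, 1293 and 1441 CPM (log2 fold change 0.98 ± 0.14 SE, edgeR adjusted p = 7.59e-05). *Ciita*, the class II transactivator, had no call (log2 fold change 0.09 ± 0.18 SE, edgeR adjusted p = 0.773). By library totals alone, 6 members were called and none was lower in UEA-1+ libraries. The co-stimulatory genes *Cd80* and *Cd86* could not be tested. *Cd86* had 20 transcripts in UEA-1+ and none in Ly51+ libraries, at least 16.3-fold more.

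Receptors of the TNF family and genes of NF-kB signalling, the pathway downstream of RANK and CD40, were mostly higher in UEA-1+ libraries, with 11 of 17 testable members higher, 2 lower and a median of 0.91. *Traf1*, an adaptor and target of the pathway, stood at 19.4, 33.1, 31.2 and 32.99 against 0.97, 0, 8.67 and 1.26 CPM (log2 fold change 3.21 ± 0.58 SE, edgeR adjusted p = 5.41e-04). *Nfkbia*, the inhibitor that NF-kB induces, was measured at 1068, 793, 827 and 1257 against 366.7, 272, 262 and 522.5 CPM (log2 fold change 1.47 ± 0.23 SE, edgeR adjusted p = 1.22e-04). The alternative pathway subunit *Nfkb2* showed 249.997, 267.6, 228 and 168.6 against 90.2, 69.2, 111 and 83.3 CPM (log2 fold change 1.38 ± 0.18 SE, edgeR adjusted p = 3.22e-05), with every UEA-1+ library above every Ly51+ library. The 2 members higher in Ly51+ libraries were the canonical subunit *Nfkb1*, at 91.1, 117, 116.3 and 110.0 against 293, 264.9, 253.2 and 228 CPM (log2 fold change -1.26 ± 0.15 SE, edgeR adjusted p = 1.36e-05), and *Ltbr*, the lymphotoxin receptor, at 36.8, 73.9, 54.01 and 62.3 against 97.98, 91.4, 127 and 100.96 CPM (log2 fold change -0.91 ± 0.21 SE, edgeR adjusted p = 0.0039). The counts were 8 and 3 with library totals alone. Of 12 genes for partners of the Aire protein and for chromatin regulators, 10 had no call, and the median was 0.06. *Xrcc5*, a subunit of the Ku dimer, was higher in Ly51+ libraries (log2 fold change -0.97 ± 0.24 SE, edgeR adjusted p = 0.00642), and the deacetylase *Sirt1* was higher in UEA-1+ libraries (log2 fold change 1.36 ± 0.41 SE, edgeR adjusted p = 0.0194), a call that was lost without UEA-1+ replicate 10 (adjusted p = 0.144) or Ly51+ replicate 2 (0.0652). By library totals alone, 4 of these 12 were higher in Ly51+ libraries and none in UEA-1+ libraries.

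Genes of the Ccl21a stage and of basal medullary cells were higher in UEA-1+ libraries in 6 of 10 testable members, with a median of 1.27 and none lower. *Ccl19* and *Ccl21a* encode chemokines that draw positively selected thymocytes into the medulla. *Ccl19* stood at 256, 173.3, 186.9 and 183 against 4.85, 12, 11.3 and 16.4 CPM (log2 fold change 4.18 ± 0.26 SE, edgeR adjusted p = 2.14e-08). *Ccl21a* was measured at 29.1, 50.98, 58.2 and 62.3 against 4.85, 12, 2.60 and 17.7 CPM (log2 fold change 2.46 ± 0.43 SE, edgeR adjusted p = 3.76e-04). The basal keratin *Krt5* was present in both sorts, at 1184, 1514, 2162 and 2038 against 286.2, 621.3, 280.9 and 395 CPM (log2 fold change 2.12 ± 0.26 SE, edgeR adjusted p = 1.36e-05). Its partner *Krt14* stood at 467, 497.05, 483.98 and 593.8 against 150.4, 108.004, 134 and 102.2 CPM (log2 fold change 2.04 ± 0.17 SE, edgeR adjusted p = 2.97e-07), with a tight spread in each sort. *Itga6*, an integrin of the basal membrane contact, was nearer between the sorts (log2 fold change 0.99 ± 0.19 SE, edgeR adjusted p = 6.87e-04). *Itgb4*, *Pdpn* and *Plet1* had no call, with log2 fold changes of 0.06, -0.05 and 0.51, and *Cldn3* had an edgeR adjusted p of 0.0511. A call was found for 5 members with library totals alone.

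**Figure D3:**
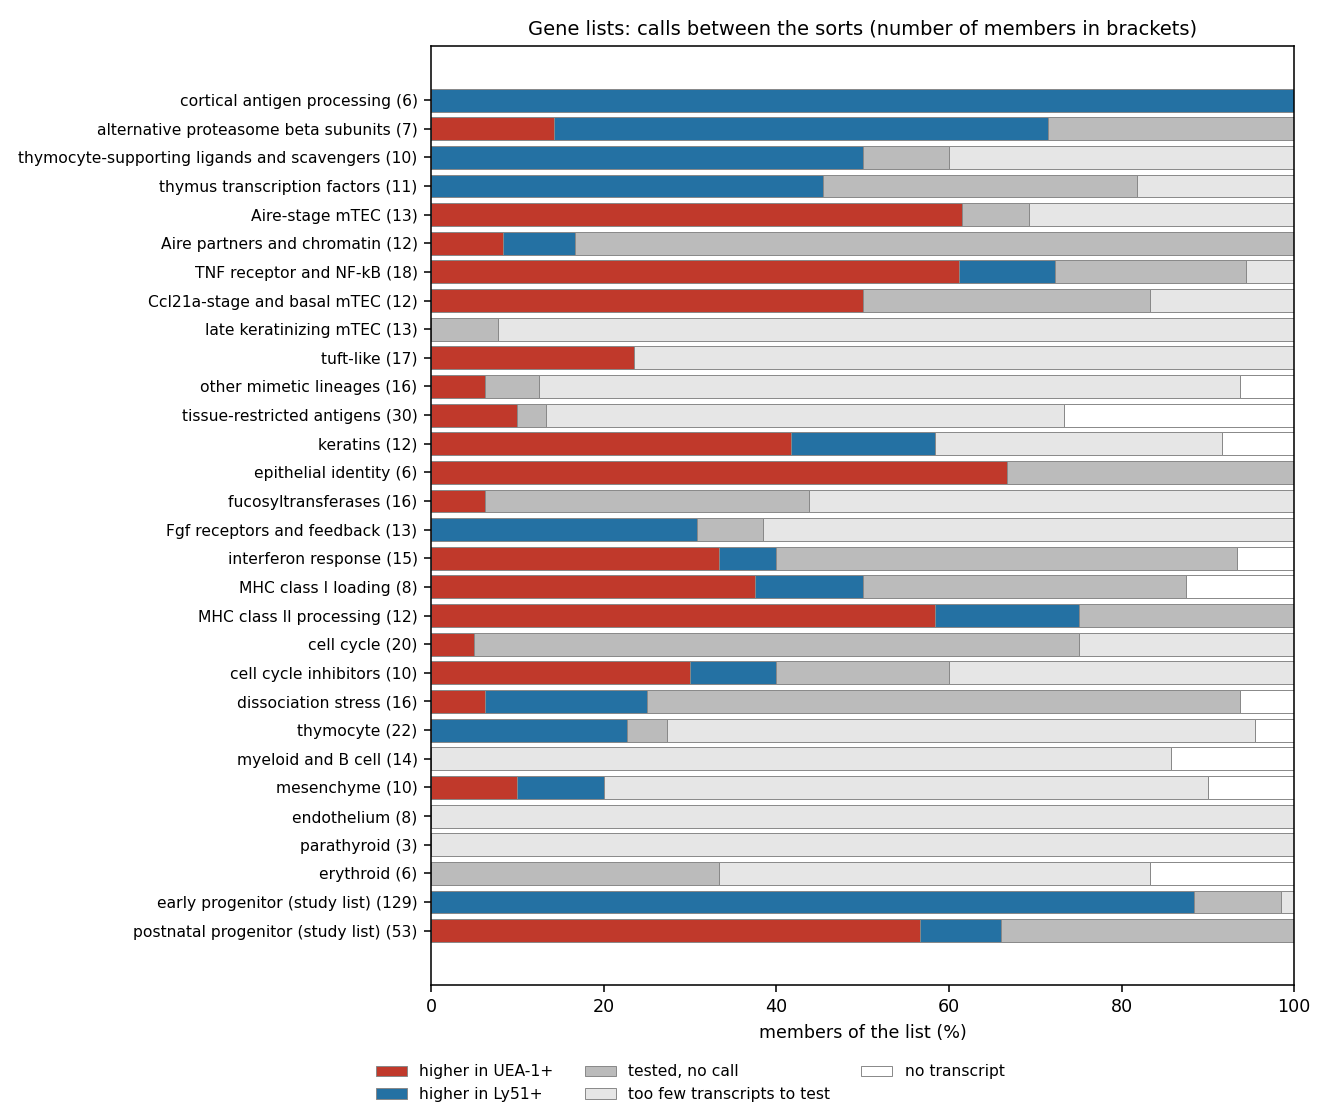
Share of the members of each of 30 gene lists (x axis, percent, list sizes in brackets) that were higher in UEA-1+ (red), higher in Ly51+ (blue), tested without a call (grey), too low to test (light grey) or without a transcript (white). The cortical antigen processing and ligand lists are blue or grey among their tested members, the Aire-stage, tuft-like and basal lists red or grey, and the mimetic and tissue antigen lists mostly too low to test; with library totals alone, the proteasome, Aire partner, interferon and fucosyltransferase lists shift towards blue.

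Mimetic programmes were largely below the limit for testing. In sums over the cells of a library, fewer cells of a type and less RNA per cell cannot be told apart. Of the tuft-like list 4 members passed the count filter and 13 did not. A member near 0 in Ly51+ libraries passed through the UEA-1+ libraries alone and so had to differ, and no count of calls is read for this list. Tuft cells are chemosensory cells of mucosal epithelia. *Sh2d6*, which marks tuft cells, stood at 182, 152.9, 139.2 and 40.3 CPM in UEA-1+ libraries and had no transcript in Ly51+ libraries (at least 188.8-fold higher). *Lrmp* was measured at 93.02, 48.4, 133 and 21.99 against 4.85, 0, 9.54 and 3.79 CPM. *Dclk1*, a kinase used to mark tuft cells, was at 147, 336, 155.8 and 69.6 against 25.2, 13.8, 32.1 and 36.6 CPM (log2 fold change 2.75 ± 0.38 SE, edgeR adjusted p = 4.28e-05). UEA-1+ replicate 12 was the lowest of its sort for each of these. *Trpm5*, the cation channel of taste transduction, was not tested, since its levels of 94.96, 119.8, 177 and 0 CPM left UEA-1+ replicate 12 without a transcript. The Ly51+ libraries held 1 transcript of it. *Avil* showed the same order, at 207.4, 227, 297.04 and 11 against 0, 0.923, 0 and 0 CPM, and *Alox5*, the lipoxygenase of leukotriene synthesis, stood at 58.1, 71.4, 112 and 43.98 against 2.91, 6.46, 9.54 and 7.57 CPM.

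Late keratinizing genes could not be compared by the test, since 12 of 13 members were under the filter. UEA-1+ replicate 9 held most of their transcripts. *Krt10*, a keratin of suprabasal epidermis, stood at 406.97, 10.2, 12.5 and 14.7 against 16.49, 13.8, 11.3 and 12.6 CPM, *Krtdap* at 284.9, 61.2, 24.9 and 11 against 0.97, 3.69, 0.867 and 8.83 CPM and *Ivl*, the cornified envelope protein involucrin, at 13.6, 2.55, 16.6 and 18.3 against 0, 0, 0 and 0 CPM. *Spink5*, the testable member, was spread over both sorts, at 196, 33.1, 214 and 14.7 against 52.4, 4.62, 4.34 and 413 CPM (log2 fold change 0.12 ± 0.96 SE, edgeR adjusted p = 0.95). Of other mimetic lineages, *Spib*, a factor of microfold cells, was higher in UEA-1+ libraries, at 306, 245, 145 and 117 against 2.91, 0, 8.67 and 2.52 CPM (log2 fold change 5.75 ± 0.46 SE, edgeR adjusted p = 2.28e-07). It passed the count filter through the UEA-1+ libraries, so that this call was set by the filter. *Gp2*, a receptor of mature microfold cells, had no call (log2 fold change 0.45 ± 0.85 SE, edgeR adjusted p = 0.752). It stood at 27.1, 7.65, 326 and 3.67 against 40.7, 5.54, 157.8 and 83.3 CPM, so that single libraries of both sorts were high.

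Of 30 tissue-restricted antigens, 22 had a transcript, and 4 passed the count filter. Of these, *Csn2*, *Resp18* and *Crp* passed through the UEA-1+ libraries, so that their calls were set by the filter. *Csn2*, the milk protein beta-casein, stood at 198, 224, 806 and 205.3 CPM in UEA-1+ libraries and was not found in Ly51+ libraries (634 against 0 transcripts, at least 516-fold higher). UEA-1+ replicate 11 was far above the others, and 1 of its cells held 308 *Csn2* transcripts. *Resp18*, a protein of endocrine cells, was measured at 31.01, 168.2, 45.7 and 62.3 against 0, 0, 0 and 0 CPM (at least 98.5-fold higher), and *Crp*, the liver's C-reactive protein, at 36.8, 71.4, 41.5 and 29.3 against 0.97, 3.69, 0.867 and 0 CPM. *Reg3g*, an antimicrobial protein of the gut, had no call and differed between libraries of both sorts, with 426, 133, 552.5 and 21.99 against 4.85, 2.77, 3.47 and 657.5 CPM. The 18 members under the filter held 997 transcripts in UEA-1+ and 10 in Ly51+ libraries.

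Keratins went both ways. Of 7 testable members, 5 were higher in UEA-1+ and 2 in Ly51+ libraries. *Krt17* was measured at 1833, 2177, 2663 and 2159 against 676.2, 733, 603 and 714 CPM (log2 fold change 1.70 ± 0.15 SE, edgeR adjusted p = 8.24e-07), in the direction of *Krt5* and *Krt14*. *Krt7* was nearer between the sorts (log2 fold change 0.72 ± 0.17 SE, edgeR adjusted p = 0.00412). The other way went *Krt18* at 773, 910.0, 1213 and 1301 against 2834, 2962, 3262 and 3014 CPM (log2 fold change -1.53 ± 0.17 SE, edgeR adjusted p = 5.71e-06) and its partner in simple epithelia, *Krt8*, at 1097, 1239, 1115 and 1257 against 2367, 2213, 2385 and 1774 CPM (log2 fold change -0.89 ± 0.14 SE, edgeR adjusted p = 1.93e-04). *Krt19* overlapped, at 93.02, 33.1, 205.6 and 32.99 against 36.9, 40.6, 36.4 and 29.03 CPM (log2 fold change 1.42 ± 0.42 SE, edgeR adjusted p = 0.0162), and its call rested on UEA-1+ replicate 11 (adjusted p = 0.15 without it). Library totals alone left 3 keratins higher in UEA-1+ libraries. Among 6 genes of epithelial identity, 4 were higher in UEA-1+ libraries. *Epcam*, the antigen on which all cells were sorted, stood at 275, 293, 255.5 and 271.2 against 123, 117, 116.2 and 152.7 CPM (log2 fold change 1.107 ± 0.15 SE, edgeR adjusted p = 2.86e-05). *Elf3* and *Ehf*, Ets factors of epithelia, had log2 fold changes of 2.62 and 2.72, and *Cldn7*, a tight junction protein, reached 273, 170.8, 135 and 11 against 0.97, 5.54, 30.3 and 20.2 CPM (log2 fold change 3.43 ± 0.62 SE, edgeR adjusted p = 5.31e-04), with UEA-1+ replicate 12 below Ly51+ replicates 3 and 8.

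The enzyme gene that makes the fucose linkage bound by UEA-1 was itself higher in the sort. *Fut1* stood at 31.01, 35.7, 33.2 and 40.3 against 1.94, 3.69, 0 and 0 CPM (log2 fold change 4.39 ± 0.51 SE, edgeR adjusted p = 8.95e-06). It passed the count filter through the UEA-1+ libraries, so that its call was set by the filter. Of the 6 other testable genes of fucose transfer and supply, none had a call, and the median of the list was 0.03. Library totals alone put 2 of them higher in Ly51+ libraries. *Fut2*, which makes the same linkage in secretory cells, was not tested, at 11.6, 12.7, 8.31 and 0 against 0, 0, 0.867 and 1.26 CPM. Genes of Fgf signalling, which drives the growth of TECs, went with the Ly51+ sort in 4 of 5 testable members (median -1.55). These were the ligand *Fgf1*, at 25.2, 15.3, 20.8 and 25.7 against 49.5, 48, 50.3 and 46.7 CPM (log2 fold change -1.16 ± 0.23 SE, edgeR adjusted p = 0.00108), and the feedback or target genes *Spry1* (-1.68), *Dusp6* (-1.55) and *Etv5* (-1.68). The receptor *Fgfr2* had no call, at 87.2, 99.4, 78.9 and 142.9 against 129, 143.1, 132 and 122 CPM (log2 fold change -0.41 ± 0.18 SE, edgeR adjusted p = 0.11). All 5 were called higher in Ly51+ libraries with library totals alone.

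Class I genes were higher in UEA-1+ libraries in 3 of 7 members and lower in 1, with a median of 0.29, and the same counts were found with library totals alone. *B2m*, the light chain of class I molecules, stood at 6587, 6862, 6132 and 6784 against 3081, 3141, 2567 and 3746 CPM (log2 fold change 1.07 ± 0.14 SE, edgeR adjusted p = 2.07e-05). *Nlrc5*, the class I transactivator, was measured at 63.95, 56.1, 45.7 and 43.98 against 5.82, 10.2, 10.4 and 6.31 CPM (log2 fold change 2.65 ± 0.29 SE, edgeR adjusted p = 4.51e-06). The lower member was *Erap1*, which trims peptides (log2 fold change -1.15 ± 0.33 SE, edgeR adjusted p = 0.0157), and its call was lost without UEA-1+ replicate 9 (adjusted p = 0.074). The peptide transporters *Tap1* and *Tap2* had no call (0.07 and -0.11). For class II processing, 7 of 12 members were higher in UEA-1+ libraries and 2 in Ly51+ libraries, or 5 and 3 with library totals alone. The lysosomal proteases were divided, since *Ctsl* was higher in Ly51+ libraries and *Ctss*, cathepsin S, in UEA-1+ libraries, at 176, 176, 110.1 and 98.96 against 7.76, 7.38, 8.67 and 13.9 CPM (log2 fold change 3.93 ± 0.27 SE, edgeR adjusted p = 6.17e-08). The peptide exchange factors were divided as well, with *H2-DMa* higher in Ly51+ libraries (log2 fold change -1.10 ± 0.15 SE, edgeR adjusted p = 4.60e-05) and its inhibitor *H2-Oa* higher in UEA-1+ libraries (log2 fold change 1.80 ± 0.22 SE, edgeR adjusted p = 1.67e-05). Interferon response genes were called in 5 members higher in UEA-1+ libraries and in 1 lower, of 14, with a median of 0.33, and with library totals alone in 2 higher and 4 lower. *Cxcl10*, a chemokine, showed 504, 889.6, 442.4 and 285.9 against 266.8, 183, 74.6 and 141.3 CPM (log2 fold change 1.68 ± 0.35 SE, edgeR adjusted p = 0.00155), and *Irf7*, *Oas1a*, *Stat2* and *Ifit1* had log2 fold changes of 0.99, 0.56, 0.68 and 0.64. The calls of *Stat2* and *Ifit1* were lost without any 1 of 5 libraries (adjusted p 0.0837 to 0.137 and 0.064 to 0.148), for both without UEA-1+ replicate 9 or Ly51+ replicates 2, 3 or 8. *Irgm1*, a GTPase, was the lower member (log2 fold change -0.93 ± 0.23 SE, edgeR adjusted p = 0.00554).

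Proliferation genes were called in 1 of 15 members. Among them, *Tyms* (thymidylate synthase) was higher in UEA-1+ libraries (log2 fold change 1.15 ± 0.26 SE, edgeR adjusted p = 0.00319), or with an adjusted p of 0.074 without Gm gene models and mitochondrial genes, and the other 14 had no call, with a median of 0.30 over the list. *Mki67*, the proliferation antigen, ranged more widely among the UEA-1+ than among the Ly51+ libraries, at 77.5, 125, 10.4 and 190.6 against 72.8, 96.9, 92.8 and 69.4 CPM (log2 fold change 0.17 ± 0.43 SE, edgeR adjusted p = 0.814). Of cell cycle inhibitors, *Cdkn1a* (p21), at 253.9, 273, 343 and 176 against 91.2, 32.3, 122 and 46.7 CPM (log2 fold change 1.83 ± 0.32 SE, edgeR adjusted p = 3.56e-04), *Cdkn1c* (p57, log2 fold change 2.10) and *Trp53* (0.96) were higher in UEA-1+ libraries. *Btg2* was higher in Ly51+ libraries (log2 fold change -0.84 ± 0.27 SE, edgeR adjusted p = 0.0271), but not without UEA-1+ replicate 10 (adjusted p = 0.0755) or Ly51+ replicate 1 (0.0884). Library totals alone added 1 proliferation gene and 1 inhibitor to those higher in Ly51+ libraries. Of 15 immediate early and heat shock genes, which dissociation can induce, 3 were higher in Ly51+ and 1 in UEA-1+ libraries, and 11 had no call. This share of calls was near the 29.9% of all genes tested. *Fos* stood at 432, 507, 652.2 and 121 against 719, 544, 750.1 and 459 CPM (log2 fold change -0.52 ± 0.33 SE, edgeR adjusted p = 0.269). *Nr4a1*, *Zfp36* and *Ier3* were higher in Ly51+ libraries and *Jund* in UEA-1+ libraries, with log2 fold changes of -1.53, -1.10, -0.96 and 0.83. Under library totals alone, 7 members were higher in Ly51+ libraries and none in UEA-1+ libraries.

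RNA of thymocytes moved with the cortical genes. Of 22 genes on the thymocyte list, 6 passed the count filter, among them *Rag1*, *Cd8a* and *Trbc1* through the Ly51+ libraries alone, so that no count of calls is read for this list. Summed over the list, thymocyte genes reached 62.3 to 112 CPM in UEA-1+ and 165 to 904 CPM in Ly51+ libraries. *Trbc1*, a constant segment of the T cell receptor beta chain, stood at 9.69, 5.10, 10.4 and 3.67 against 235.7, 42.5, 247 and 104.7 CPM. *Rag1*, the recombinase of immature thymocytes, had 1 transcript in UEA-1+ and 118 in Ly51+ libraries (48.3-fold, 95% counting interval 8.51 to 1925, higher in Ly51+). *Cd8a* had 3 against 125 (17.1-fold, 95% counting interval 5.71 to 83.9). *Thy1* overlapped between the sorts (log2 fold change -2.53 ± 0.73 SE, edgeR adjusted p = 0.015; adjusted p = 0.0571 without UEA-1+ replicate 9). Cells with at least 3 thymocyte transcripts, counted at full depth, which was lower in UEA-1+ cells, numbered 2, 6, 4 and 0 against 11, 5, 7 and 3. Without these cells, 1175 genes were higher in UEA-1+ and 986 in Ly51+ libraries of 7779 tested, and *Psmb11*, *Prss16* and *Ccl25* were called as before, while *Foxn1*, *Pax9*, *Psmb7*, *Ier3* and *Sirt1* lost their calls (adjusted p 0.0563 to 0.127), at log2 fold changes of -0.58, -0.49, -0.54, -0.69 and 0.83 against -0.57, -0.55, -0.65, -0.96 and 1.36 with all cells. *Cd8a*, *Rag1* and *Trbc1* could not be tested then. The B cell and myeloid genes summed to 75.6 to 91.6 CPM in UEA-1+ and to 11.1 to 25.2 CPM in Ly51+ libraries, and none of 12 members with a transcript could be tested. Of mesenchymal genes, *Fbn1* was higher in UEA-1+ libraries (log2 fold change 1.45 ± 0.29 SE, edgeR adjusted p = 0.00132), *Thy1*, which is on this list too, was higher in Ly51+ libraries, and *Col1a1* had 1 transcript in all 8 libraries and *Pdgfra* stood at no more than 5.10 CPM. The 8 endothelial genes, none of which could be tested, summed to 7.65 to 150 CPM in UEA-1+ and to 0.867 to 8.83 CPM in Ly51+ libraries. Parathyroid genes summed to 3.88 to 1799 against 0 to 0.97 CPM, and globin and other erythroid genes to 6.23 to 8129 against 0.97 to 3652 CPM. The highest values of these last lists came from single libraries. The part of such RNA in the calls was not tested, apart from the fit without cells with thymocyte RNA.

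The study's own lists of progenitor genes were split between the sorts. It chose both on cells that include these, so that the counts are not independent evidence of a direction. Of 127 testable early progenitor genes, 13 had no call and all others were higher in Ly51+ libraries, with a median of -1.42 (119 higher in Ly51+ with library totals alone). *Serpinf1*, a secreted factor that limits blood vessel growth, stood at 100.9, 125.5, 92.8 and 109 CPM in Ly51+ libraries and had no transcript in UEA-1+ libraries (at least 59.1-fold higher in Ly51+). *Scn1a*, a subunit of a sodium channel, showed 5.81, 0, 2.08 and 7.33 against 198, 188.3, 133 and 146 CPM (log2 fold change -5.46 ± 0.37 SE, edgeR adjusted p = 5.51e-08). *Penk*, the precursor of enkephalins, had 3 against 359 transcripts (49.01-fold, 95% counting interval 16.6 to 238.8). *Spon2* was measured at 11.6, 10.2, 0 and 11 against 234.8, 183, 189.03 and 175.4 CPM (log2 fold change -4.61 ± 0.34 SE, edgeR adjusted p = 1.11e-07). Of 53 postnatal progenitor genes, 30 were higher in UEA-1+ libraries, 5 in Ly51+ libraries and 18 had no call (median 0.90), or 25 and 13 with library totals alone. *Clca3a1* was at 310.1, 346.7, 591.996 and 450.8 against 17.5, 12, 10.4 and 25.2 CPM (log2 fold change 4.74 ± 0.28 SE, edgeR adjusted p = 1.35e-08), and *Tgfbi*, an extracellular matrix protein, at 209, 346.7, 208 and 194 against 22.3, 8.31, 3.47 and 5.05 CPM (log2 fold change 4.58 ± 0.36 SE, edgeR adjusted p = 2.26e-07). *Ccl11* (eotaxin) and *Slc4a11* had log2 fold changes of 4.72 and 4.87. The 5 members higher in Ly51+ libraries were *Igfbp5*, *Myl9*, *Gas1*, *Hpgd* and *Dst*, with log2 fold changes from -1.07 to -0.74.

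Outside these lists, the genes of largest change were taken among called genes whose libraries did not overlap and that reached 50 CPM. Their p-values are descriptions, since the genes were picked by their calls and changes. Those near 0 in 1 sort also passed the count filter through the other. *Insm1*, a factor of endocrine cells, was measured at 98.8, 133, 78.9 and 65.97 CPM in UEA-1+ libraries and had no transcript in Ly51+ libraries (at least 129-fold higher). *Calcb*, the neuropeptide CGRP-beta, stood at 109, 152.9, 101.8 and 142.9 CPM against 0.97, 0, 0.867 and 0 CPM (249.1-fold, 95% counting interval 68.1 to 2071). *Gnb3*, a G protein subunit of taste cells, varied between libraries, at 139.5, 43.3, 245 and 36.7 CPM against none (at least 177-fold higher). In UEA-1+ replicate 11, 1 cell held 75.4% of its transcripts. *Sncg* and *Serpinb12* were likewise missing from Ly51+ libraries, and were at least 162-fold and 108.3-fold higher in UEA-1+ libraries. *Skint2*, of a family of epithelial genes related to butyrophilins, stood at 122, 104.5, 127 and 91.6 against 0, 0, 1.73 and 0 CPM (231.97-fold, 95% counting interval 63.3 to 1929). *Hdc*, which makes histamine, stood at 293, 499.6, 147 and 65.97 against 1.94, 1.85, 1.73 and 1.26 CPM (log2 fold change 7.07 ± 0.63 SE, edgeR adjusted p = 7.23e-07), and *Il1rn*, the antagonist of the interleukin-1 receptor, at 128, 125, 145 and 238.2 against 0, 0.923, 1.73 and 1.26 CPM (log2 fold change 7.07 ± 0.40 SE, edgeR adjusted p = 8.98e-09). In Ly51+ libraries the leading genes without a list were *Plekhb1*, at 0, 2.55, 4.15 and 0 against 202.8, 155.1, 152.6 and 142.6 CPM (90.9-fold, 95% counting interval 30.98 to 441.98), *Syngr1*, a synaptic vesicle protein, at 3.88, 0, 4.15 and 3.67 against 105.7, 135, 127 and 106.01 CPM (log2 fold change -5.23 ± 0.34 SE, edgeR adjusted p = 4.04e-08), and *Ednrb*, the endothelin receptor B, at 3.88, 2.55, 0 and 0 against 81.5, 38.8, 58.1 and 30.3 CPM (29.6-fold, 95% counting interval 10 to 145).

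The same markers were counted cell by cell after each cell had been thinned to 1000 molecular barcodes, so that the total was equal, though *Gm10800* took a larger share of it in UEA-1+ than in Ly51+ cells. A transcript of *Aire* was then found in 14.1%, 10.3%, 6.45% and 3.45% of UEA-1+ cells and in 0 Ly51+ cells, which allows a share of up to 0.962% of cells with a barcode of it at this depth and sets no limit on cells that express the gene. *Fezf2* was found in 23.1%, 22.1%, 17.7% and 20.7% of UEA-1+ cells and in no Ly51+ cell. *Psmb11* was found in 0%, 2.94%, 1.61% and 1.72% against 36.1%, 35.6%, 36.4% and 30.4%, and *Prss16* in 2.56%, 2.94%, 1.61% and 8.62% against 66.3%, 67.1%, 67.5% and 60.8%. The share with *Krt5* was 34.6%, 35.3%, 46.8% and 50% against 19.3%, 26.03%, 18.2% and 18.99%. For each of these 5 genes the libraries of the sorts did not overlap (exact two-sided permutation test, n = 4 and 4, p = 0.0286). Over the 12 genes tested, the adjusted p was 0.0686, so that none of the 12 shares passed the correction. *Foxn1* was found in 2.56% to 9.68% of UEA-1+ and in 7.59% to 18.2% of Ly51+ cells (exact permutation p = 0.0571, adjusted 0.114). *Mki67* was found in 0% to 8.62% against 0% to 5.48% (exact permutation p = 0.543, adjusted 0.592). Shares of *Ccl21a*, *Ivl*, *Trpm5*, *Enpep* and *Cd3e* gave adjusted p-values of 0.147 to 1. *Enpep* was found in 2 UEA-1+ and 10 Ly51+ cells at this depth (exact permutation p = 0.257). With all transcripts, 86 Ly51+ and 4 UEA-1+ cells held it. Without a correction for depth the share with *Mki67* was lower in UEA-1+ cells, the opposite of its order at equal depth. These differences also moved with the genes and cells counted. When Gm gene models and mitochondrial genes were left out before thinning, only 162 UEA-1+ and 289 Ly51+ cells still held 1500 transcripts, and the same cells were therefore counted with all genes as well. The difference (UEA-1+ minus Ly51+) for *Fezf2* was 20.89 percentage points in all cells, 24.98 in the cells that remained and 33.35 in these without the Gm and mitochondrial genes, which then left it in 2 Ly51+ cells. For *Krt5* it was 21.05, 24.14 and 33.39, for *Aire* 8.574, 11.56 and 13 and for *Trpm5* 4.081, 6.701 and 6.761 in the same order. For *Enpep* it was -2.35, -3.497 and -4.746, or -4.835 with 3000 transcripts per cell, -7.099 at 2000 barcodes and -1.256 without Ly51+ replicate 3. For *Foxn1* it was -7.773, -7.548 and -3.517, or -2.783 with 3000 transcripts per cell. *Mki67* changed sign, at 1.067, -2.316 and -0.2154, and -1.575 with 3000 transcripts per cell. *Psmb11* (-33.06, -34.04 and -37.84) and *Prss16* (-61.49, -56.09 and -61.09) moved less.

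Markers were also counted in pairs within cells. At 1000 barcodes, no UEA-1+ cell held both *Aire* and *Psmb11*, 24 held *Aire* alone and 4 *Psmb11* alone. With so few cells of either kind, this does not show that these genes exclude each other. Both *Aire* and *Fezf2* were found in 15 UEA-1+ cells, *Aire* without *Fezf2* in 9 and *Fezf2* without *Aire* in 41. *Krt5* occurred with *Aire* in 2 cells, and 22 cells held *Aire* without it. These counts depended on depth. With all transcripts, 29 UEA-1+ cells held both *Krt5* and *Aire* and 22 held *Aire* without *Krt5*. Both *Aire* and *Fezf2* were then found in 42 cells, and *Aire* without *Fezf2* in 9. Among the Ly51+ cells at 1000 barcodes, 94 held both *Psmb11* and *Prss16*, 110 held *Prss16* alone and 14 *Psmb11* alone. With all transcripts these numbers were 210, 77 and 9. *Krt5* was found together with *Prss16* in 30 Ly51+ cells and in 5 UEA-1+ cells. With all transcripts, 7 UEA-1+ cells held both *Aire* and *Psmb11*. For comparison, the 75 wells of UEA-1+ libraries with under 500 transcripts held 10 transcripts of *Prss16* and 1 of *Psmb11*. At 1000 barcodes, 3 or more barcodes over at least 2 members of the tuft-like list were found in 20 UEA-1+ cells (7.52%) and in 0 Ly51+ cells. The same limit on the cortical list was passed by 13 UEA-1+ cells (4.89%) and 210 Ly51+ cells (67.3%), with 7 of the UEA-1+ cells in replicate 12 (2.88% without it), and on the list of the Ccl21a stage and basal cells by 86 (32.3%) and 65 (20.8%). For the Aire-stage list, which holds class II genes that both sorts expressed strongly, the order was the other way, with 71.8% of UEA-1+ and 92.3% of Ly51+ cells over the limit. Without Gm gene models and mitochondrial genes, the shares were 15.4% and 76.5% for the cortical list, 55.6% and 28.7% for the Ccl21a stage and basal list, 8.64% and 0% for the tuft-like list and 93.8% and 97.2% for the Aire-stage list.

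More genes per cell were detected in the Ly51+ sort at equal depth, and the gap depended on the cells and genes counted. At 1000 barcodes the median cell showed 486.5, 483.5, 561.5 and 451.5 genes in UEA-1+ libraries and at least 650 in each Ly51+ library (495.8 ± 46.6 against 662.3 ± 11.1, mean ± SD, n = 4 and 4; exact permutation p = 0.0286). In the 162 UEA-1+ and 289 Ly51+ cells that held 1500 transcripts without Gm gene models and mitochondrial genes, the values with all genes were 629.4 ± 8.26 against 669.2 ± 12.7 (exact permutation p = 0.0286). In these cells, and with the Gm and mitochondrial genes left out, they were 748, 725, 740 and 725 against 762.5, 763, 756 and 744 (734.5 ± 11.4 against 756.4 ± 8.84; exact permutation p = 0.0571). The order was the other way for whole libraries. At 200000 barcodes per library, again without these genes, 13360 ± 217.6 genes were detected in UEA-1+ and 11870 ± 93.9 in Ly51+ libraries (mean ± SD, n = 4 and 4; exact permutation p = 0.0286, no overlap). Leaving out these genes and cells and using whole libraries were choices made after the data had been seen.

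**Figure D4:**
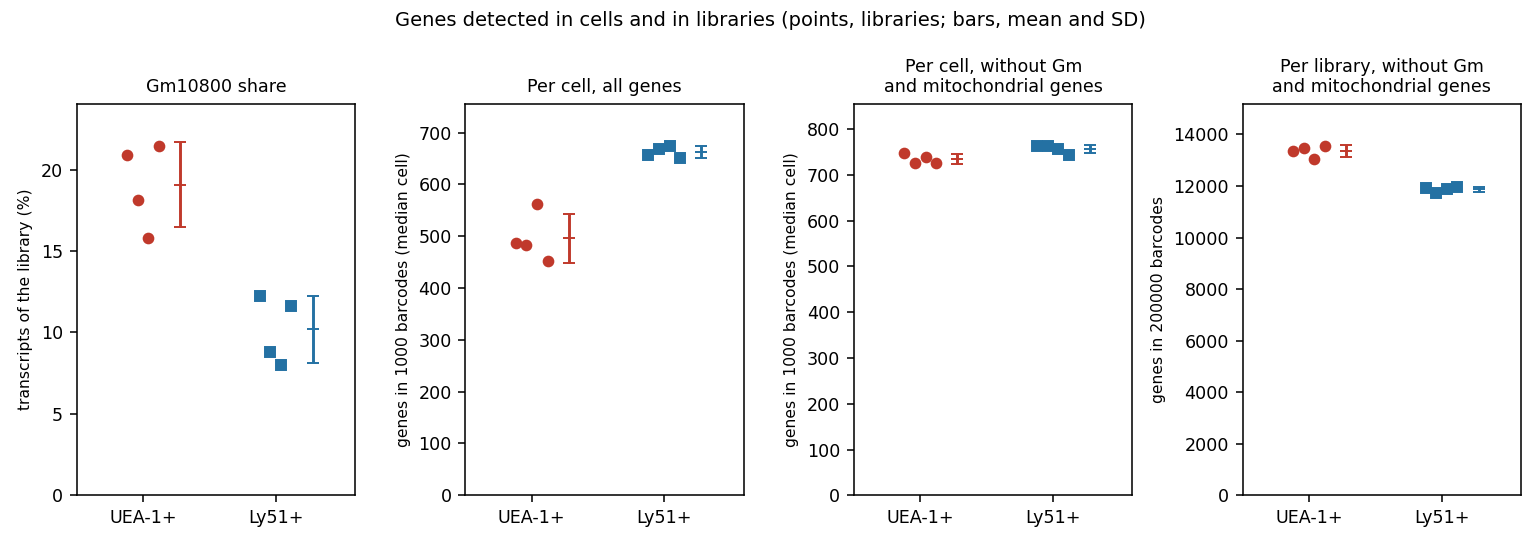
Per library (points, 4 per sort; bars, mean and SD): share of transcripts from *Gm10800* (percent), genes per median cell at 1000 barcodes with all genes and without Gm and mitochondrial genes, and genes per library at 200000 barcodes without them. The means per cell are 495.8 against 662.3 genes, and 734.5 against 756.4 without these genes and without the cells that then fell under 1500 transcripts, and per library the UEA-1+ sort is higher (13360 against 11870).

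Markers were also measured in unsorted TECs of 4-week-old wild-type males. In 12 unsorted libraries, *Aire* ranged from 135 to 379 CPM (median 279.7), *Fezf2* from 437 to 717 CPM and *Krt14* from 339 to 678.8 CPM, close to the UEA-1+ levels. *Psmb11* had a median of 49.4 CPM and reached 329.5 CPM, and *Prss16* a median of 49.03 CPM with a highest library of 664 CPM, below each Ly51+ library. In 4 further unsorted libraries labelled as technical replicates, *Psmb11* had a median of 19.6 CPM and *Krt5* one of 743 CPM against 1706 CPM in the other 12. These libraries were not tested against the sorts, and 4 others labelled as biological replicates were not analysed here.

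Ly51+ cells of 2 other mice, the barcoded females A and B, were set beside unsorted cells of the same mouse in means over 4 Ly51+ libraries each and 24 and 36 unsorted libraries, without a test. Unsorted replicate 13 of female A stood apart, with 0.518% mitochondrial transcripts and 41.1% of its transcripts in the columns not used. Both females were P28 and labelled wild type, and by the study's methods carried a guide RNA against *Hprt*, Cre under *Foxn1* control and Cas9, which mark cells by scars in *Hprt*. No library of these females is labelled as UEA-1+. *Psmb11* stood at 1779.8 against 182 CPM in female A and at 2404 against 370.3 CPM in female B. *Aire* went from 261 and 333.6 CPM in unsorted cells to 0.63 and 0.867 CPM in Ly51+ cells. *Enpep* stood at 128 and 84.3 CPM in their Ly51+ cells, above the 22.3 to 37.3 CPM of the male Ly51+ libraries. RNA of thymocytes moved with this comparison. At least 3 thymocyte transcripts were held by 89.08% and 95.91% of the Ly51+ cells of females A and B. This was so for 18.3% and 53.73% of their unsorted cells and for 8.333% of the male Ly51+ cells. These shares were counted at full depth. The median cell held 10171 to 16987 transcripts in the females' Ly51+ libraries and 3176 to 8547 in their unsorted libraries. The part of thymocyte RNA in the counts that follow was not tested. Of the 1114 genes higher in the males' Ly51+ libraries, 908 (81.5%) were above the unsorted level in both females, against 40% of all genes tested (52.3% in female A and 48.8% in female B taken alone). Of the 1341 genes higher in UEA-1+ libraries, 1242 (92.6%) were below it in both, against 38.9% of all genes tested. Without the unsorted library that stood apart these were 902 (81%, background 39.1%) and 1247 genes (93%, background 40.2%). *Serpinf1* was an exception among the leading genes, with 13.2 against 17.7 CPM in female A and 21.7 against 17.9 CPM in female B. Sex, transgenes, the mouse and the handling of the wells cannot be told apart between the males and the females. By the study's methods, wells of barcoded cells were divided between scar and transcriptome reading, while non-barcoded P28 wells were used whole. *Gm10800* took 8.015% to 12.26% of the transcripts of male Ly51+ libraries and 0.02561% to 2.556% of those of the females.

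**Figure D5:**
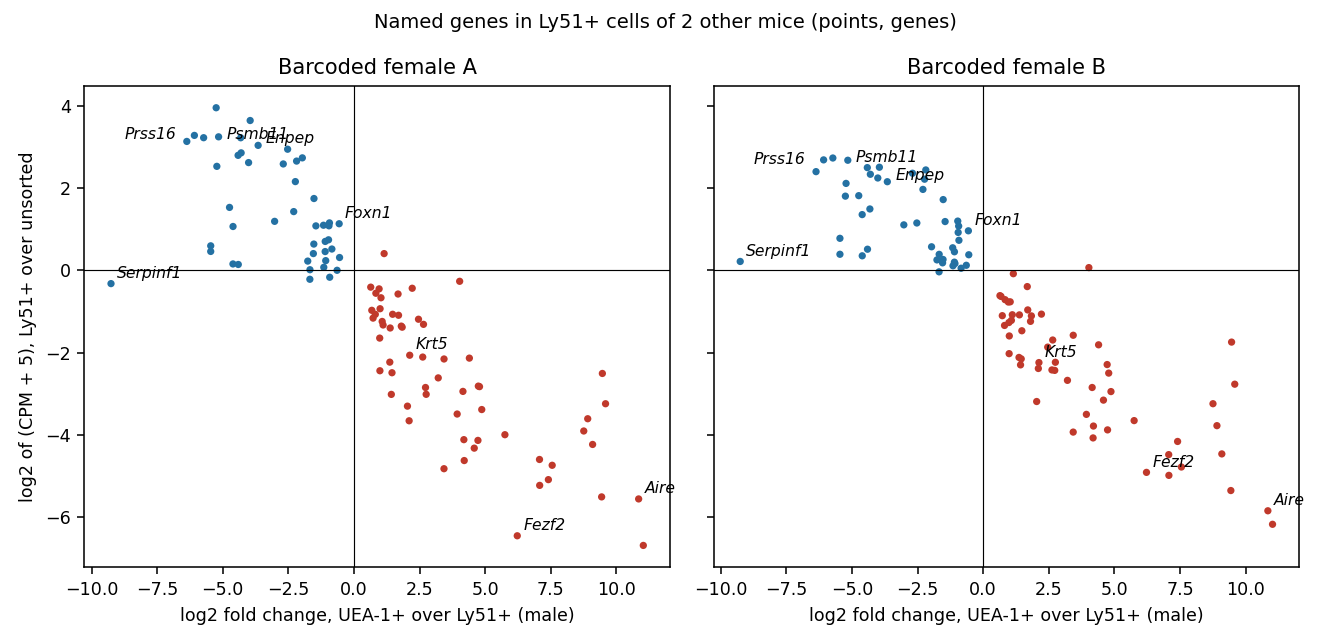
Log2 fold change of the named genes between the male sorts (x axis, UEA-1+ over Ly51+) against the log2 ratio of Ly51+ over unsorted cells in each barcoded female (y axis, with 5 CPM added to both means); points are genes, red for higher in UEA-1+ and blue for higher in Ly51+. Most points lie in the upper left and lower right quadrants, and *Serpinf1* lies near 0 on the y axis in both females.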

How the data were processed

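Single cells were profiled by CEL-Seq2 in libraries of 96 wells. Per the labels and the study's methods, the authors aligned reads with BWA 0.6.2-r126 (bcl2fastq 2.17.1.14 is also named in the submitters' processing notes) to mouse ENCODE VM9 gene models, kept sense reads at a single locus, counted molecular barcodes and converted them to transcripts by binomial statistics. The authors deposited these estimated counts per gene and well, not normalized, in 192 columns, of which 96 belong to the library. Here the 96 columns with most transcripts were taken, wells with at least 1500 transcripts were kept as cells, and their transcripts were summed per library and rounded. Depth was 345683 to 1015976 transcripts a library. Both doublets and free RNA were left untreated apart from the counts of cells with thymocyte RNA, since no doublet caller was run. Spike-ins and *Hprt* were left out.

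Libraries (4 against 4) were compared by edgeR 4.0.16 (R 4.3.3) with filterByExpr and TMM factors, by its quasi-likelihood test, and p-values were adjusted over all genes (Benjamini-Hochberg, 0.05). On simulated counts (7919 genes, 199 of them changed by a log2 fold of 2 and all above 20 CPM) 100% of changed genes were recovered and 3.4% of calls were false. In the data 29.9% of genes were called and the split depended on the normalization. The simulated rates are therefore a check of the procedure and do not give the error rate in the data. Shares and genes per cell were compared by exact two-sided permutation of libraries (scipy 1.17.1). Intervals and bounds cover counting error only, as does the limit for a count of 0 (3 cells of the total). Alternatives were DESeq2 1.42.0, other size factors, other filters and cell minima, and leaving out each library.

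The groups, the gene lists and their members were chosen with earlier results of these data known. Named genes were the 3 markers, up to 5 called members of largest change per list with any member that names the list, and in each direction the 12 genes of largest change without overlap and at 50 CPM or more. Members named beyond this rule to account for a count of a list were chosen after their values were seen. The 12 genes whose shares of cells were tested were picked after the gene-level fit had been seen, and other sets had been considered. Also chosen after seeing the data were the fits and cell counts without Gm gene models and mitochondrial genes or by set of 96 columns, the gene counts of whole libraries, the limit of 3 barcodes over 2 members of a list, and the comparison of cells by *Aire*. Whole-library gene counts were first drawn at a greater depth with all genes. Promoter sequences came from RefSeq (GRCm38.p6) and gene positions from the GENCODE annotation of GRCm38. Single values of some list members are not reported here, although the list counts include them.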

Additional observations from a re-analysis of the deposited data

Results flagged for a closer look

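Of 256 groups of 4 libraries checked for a single library far from the others, 20 were found (7.81%). For normally distributed values the limit is passed in about 1 in 20 groups. That rate does not hold where all other libraries are at 0, since any single value above 0 is then flagged. This was so for *Rag1*, *Prss23*, *Skint2* and the shares of cells with *Ccl21a*, *Enpep* and *Cd3e*. Among UEA-1+ libraries, replicate 9 was low for *Traf1* (19.38 CPM, others 31.16 to 33.14) and high for *Ccl19* (255.8 CPM, others 173.3 to 186.9). Replicate 10 was high for *Tgfbi* (346.7 CPM, others 194.3 to 209.3) and *Prss23* (2.549 CPM, others 0) and low for *Syngr1* (0 CPM, others 3.665 to 4.154). Replicate 11 was high for *Csn2* (805.9 CPM, others 197.7 to 224.3) and low for *Spon2* (0 CPM, others 10.2 to 11.63). Replicate 12 was high for *Rag1* (3.665 CPM, others 0) and for the share of cells with *Enpep* (3.448%, others 0%).

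Among Ly51+ libraries, replicate 8 was high for *Etv5* (44.17 CPM, others 21.34 to 24), *H2-D1* (2548 CPM, others 1802 to 1927), *Slc4a11* (5.048 CPM, others 2.601 to 2.91) and the share of cells with *Ccl21a* (3.797%, others 0%), and low for the share with *Psmb11* (30.38%, others 35.62% to 36.36%). Replicate 3 was high for *Traf1* (8.671 CPM, others 0 to 1.262) and *Skint2* (1.734 CPM, others 0) and low for the share with *Mki67* (0%, others 4.819% to 5.479%). Replicate 2 was high for the share with *Krt5* (26.03%, others 18.18% to 19.28%) and replicate 1 for *Cd3e* (1.205%, others 0%). In genes detected per cell at 2000 barcodes without Gm gene models and mitochondrial genes, UEA-1+ replicate 9 was high (1287, others 1255 to 1256). No cause was tested for any of these.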

How the results depend on the processing

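No paired analysis was possible because the UEA-1+ replicates 9 to 12 share no number with the Ly51+ replicates 1, 2, 3 and 8. Against 1341 genes higher in UEA-1+ (16.36% of 8199 tested) and 1114 higher in Ly51+ libraries (13.59%), library totals alone gave 868 (10.59%) and 2663 (32.48%), no filter on low counts 2616 (11.27%) and 1821 (7.845%) of 23212 genes, cells thinned to 1000 barcodes 14.58% and 13.72% of 933 genes, and the 4 libraries of the last 96 columns 9.302% and 5.591% of 8084 genes. Leaving out 1 library gave 1284 to 1509 (14.42% to 17.72%) and 954 to 1176 genes (10.91% to 13.41%). In none of these settings did a gene called in both fits change direction. Of the called named genes, 2 lost their call with DESeq2, 6 with library totals alone, 1 to 7 without 1 library, 5 without cells with thymocyte RNA and 20 in the libraries of the last 96 columns. With cells thinned to 1000 barcodes 28 kept their call, *Psmb8*, *Psmb9*, *H2-DMa* and *Trp63* lost it and the others could not be tested. *Krt19* lost its call as well and reversed in the libraries of the last 96 columns (log2 fold change -0.0984).

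In cells that were not thinned, differences in share (UEA-1+ minus Ly51+, percentage points) were 18.7 for *Aire*, 45.07 for *Fezf2*, 23.37 for *Krt5*, 13.12 for *Ccl21a*, 2.705 for *Ivl*, -57.35 for *Psmb11*, -66.98 for *Prss16*, -26.04 for *Enpep*, -22.34 for *Foxn1* and -8.668 for *Mki67*, the last opposite in sign to the thinned value. Some of these then passed the correction, but they carry the difference in depth. Without 1 library, thinned differences were 6.731 to 10.28 for *Aire*, 20.16 to 21.94 for *Fezf2*, 18.28 to 23.4 for *Krt5*, -34.47 to -32.48 for *Psmb11*, -63.05 to -60.71 for *Prss16*, -3.42 to -1.256 for *Enpep*, -9.507 to -5.979 for *Foxn1* and -0.2129 to 2.703 for *Mki67*. The difference of genes per cell was -166.5 with all cells and genes at 1000 barcodes, and -188.4 to -151.8 in that count without 1 library. It was -39.88 in the cells that held 1500 transcripts without Gm gene models and mitochondrial genes. In these cells without such genes it was -21.88, and -49 when these were thinned to 2000 barcodes. With 4 libraries a side, no share or per-cell value can reach an exact p under 0.0286, or 0.0571 without 1 library, and spread between animals was not measured.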

Other observations

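Some levels rested on single cells. In UEA-1+ replicate 11, 1 cell held 97.5% of the transcripts of *Pth*, the parathyroid hormone, and the same library held transcripts of *Gcm2* and *Casr*, which mark that gland, at 20.8 and 16.6 CPM. In UEA-1+ replicate 10 and Ly51+ replicate 3, 1 cell each held 97.9% and 97.4% of the transcripts of the globin gene *Hba-a1*. Of *Gp2*, 1 cell of UEA-1+ replicate 11 held 98.1%, and of *Csn2* 1 cell of that library held 79.5%. Leading genes of the UEA-1+ sort were concentrated as well in some libraries. In replicate 11, 1 cell held 75.4% of the transcripts of *Gnb3*, 1 cell 76.2% of those of *Hdc* and 1 cell 64% of those of *Aire*. In replicate 12, 1 cell held all transcripts of *Gnb3* and 1 cell 90.7% of those of *Sncg*. In replicate 10, 1 cell held 71.3% of those of *Resp18*. *Chga*, the chromogranin of endocrine cells, had transcripts in UEA-1+ libraries alone, and is at least 457-fold higher there over the sums of the sorts.

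UEA-1+ cells with and without a transcript of *Aire* at 1000 barcodes were compared within libraries, without a test. With all genes counted, the median cell with *Aire* showed more genes in 4 of 4 libraries, for example 640 against 546.5 in replicate 11 and 504.5 against 434.5 in replicate 12. Without Gm gene models and mitochondrial genes, cells with *Aire* were higher in replicate 11 (744.5 against 738), level in replicate 9 (748 against 748) and lower in replicates 10 and 12. The cells with *Aire* numbered 9, 7, 4 and 2 in that count.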
